A study of Mus musculus with 14 samples.

Results

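Heat shock chaperones are proteins that hold, fold and refold other proteins, and 10 genes that encode chaperones of the cytosol, nucleus and mitochondria were followed in sorted mouse submandibular gland cells with and without radiation (RT). They were picked by gene name from a table of 54532 gene rows: Hspa1a, Hspa1b, Hspa8, Hsph1, Dnajb1, Hsp90aa1, Hsp90ab1, Hspd1, Hspe1 and Hspb1. All 10 were matched, and all 10 were among the 15915 genes with enough counts to be tested. The genes were proposed with results of these same libraries in view, and which values led to the choice was not recorded. Their levels, fold changes and adjusted p-values are therefore a description of the libraries and support nothing beyond it.

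In the textbook account, unfolded protein in the cytosol releases the transcription factor HSF1, which binds repeats of the unit nGAAn (the heat shock element) in promoters and drives transcription within minutes. HSP70 proteins (Hspa1a, Hspa1b, Hspa8) bind exposed stretches of unfolded protein in cycles of ATP hydrolysis. J domain proteins such as Dnajb1 start each cycle, and HSP110 proteins such as Hsph1 end it by exchanging the nucleotide. HSP90 proteins act later, on proteins that are nearly folded, many of them kinases and receptors. Hspd1 and Hspe1 form the barrel and the lid of the mitochondrial chaperonin, and Hspb1 is a small heat shock protein that holds unfolded protein without ATP.

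Mice of the strain TertCreERT2/+ Rosa26LSL-tdTomato/+ supplied every group, so the samples without RT carried the same alleles as those after RT. Telomerase reverse transcriptase (Tert) is the protein of telomerase, the enzyme that extends chromosome ends. CreERT2 sits at 1 Tert allele and is a recombinase that works only once tamoxifen binds it. The Rosa26 allele yields the red protein tdTomato after Cre has acted. Cells that excluded the dye DAPI and carried the epithelial surface protein EpCAM were sorted into tdTomato-positive cells, called Tert+, and tdTomato-negative cells, called Tert-. The 4 groups were Tert+ RT (n = 4), Tert+ no RT (n = 3), Tert- RT (n = 4) and Tert- no RT (n = 3), with 15 Gy given in the RT groups. The mice were adults of unstated age, and neither the tamoxifen schedule nor the time between RT and sorting is given in the sources used here. The labels do not say whether replicates were separate animals, so p-values measure the spread between libraries only.

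Several facts about the libraries bear on what follows. Total counts ran from 5520412 to 11642156 after RT and from 9220126 to 15943597 without RT. A label field for cell type names the opposite population from the title in 14 of 14 libraries, and groups here follow the titles, which match the descriptions. Tert itself had 0 to 52 counts per library, too few to check the labels. Its level after RT was 0 to 8.41 CPM in Tert+ and 0 to 1.29 CPM in Tert-, and without RT it was 0 to 0.607 CPM in Tert+ and 1.36 to 2.45 CPM in Tert-. The epithelial gene Epcam had a median of 43.6 CPM over the 14 libraries, whereas Cd79a, part of the B cell receptor, had a median of 2794 CPM and Ptprc, shared by leukocytes, 1369.9 CPM. In every library the 6 listed B cell genes summed to at least 7287 CPM and the 8 listed epithelial genes to at most 617 CPM. The library numbers of the 8 RT samples are all above those of the 6 others, so RT and library number cannot be told apart. Levels are in CPM, a gene's counts scaled by the library's total and its TMM factor to a common library size. In bulk RNA, fewer cells of a type and less RNA per cell cannot be told apart either.

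Most members moved together across the libraries, and the promoter window from 250 bases before to 50 bases after the annotated start was read for the 7 of the 10 listed in RefSeq's promoter table (GRCm38.p6). A pair of facing heat shock element units was searched as GAANNTTC and as TTCNNGAA, which cover both strands because each reads the same on the opposite strand. Runs of 3 alternating units at the same spacing, which contain such pairs, were searched as well. Such pairs occurred in 15.1% of all 32851 windows of that length, and runs of 3 units in 0.603%. Of the 7 members, 5 held a pair in the first listed window. The windows shown are those of a mitochondrial member, the HSP110, the small heat shock protein, 1 of the inducible HSP70 copies and the J domain protein, since they differ most in number of pairs. Each runs from 5′ to 3′ on the gene's strand, and capitals mark bases inside a pair.
Hspe1: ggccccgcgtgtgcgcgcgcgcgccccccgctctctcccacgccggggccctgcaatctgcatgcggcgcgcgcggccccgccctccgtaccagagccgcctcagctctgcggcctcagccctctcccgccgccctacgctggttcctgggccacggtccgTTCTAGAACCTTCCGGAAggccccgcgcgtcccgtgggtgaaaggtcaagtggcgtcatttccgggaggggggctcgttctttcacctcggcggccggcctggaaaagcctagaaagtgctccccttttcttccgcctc
Hsph1: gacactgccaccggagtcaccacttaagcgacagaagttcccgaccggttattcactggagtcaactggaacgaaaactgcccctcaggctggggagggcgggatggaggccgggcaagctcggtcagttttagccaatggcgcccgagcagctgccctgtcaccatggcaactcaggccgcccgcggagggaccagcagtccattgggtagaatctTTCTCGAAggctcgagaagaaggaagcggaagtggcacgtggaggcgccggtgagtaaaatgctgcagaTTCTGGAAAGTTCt
Hspb1: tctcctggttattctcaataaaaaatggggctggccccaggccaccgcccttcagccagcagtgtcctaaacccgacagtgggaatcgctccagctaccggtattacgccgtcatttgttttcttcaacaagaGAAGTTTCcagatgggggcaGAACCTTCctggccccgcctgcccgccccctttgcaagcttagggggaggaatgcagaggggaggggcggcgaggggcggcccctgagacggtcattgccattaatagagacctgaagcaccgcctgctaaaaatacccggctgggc
Hspa1a: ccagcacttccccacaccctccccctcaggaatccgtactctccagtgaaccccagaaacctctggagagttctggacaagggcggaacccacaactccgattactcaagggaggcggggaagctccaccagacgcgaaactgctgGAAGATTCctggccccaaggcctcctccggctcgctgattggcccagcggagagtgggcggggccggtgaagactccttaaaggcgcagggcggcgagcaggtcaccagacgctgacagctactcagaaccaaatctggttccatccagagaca
Dnajb1: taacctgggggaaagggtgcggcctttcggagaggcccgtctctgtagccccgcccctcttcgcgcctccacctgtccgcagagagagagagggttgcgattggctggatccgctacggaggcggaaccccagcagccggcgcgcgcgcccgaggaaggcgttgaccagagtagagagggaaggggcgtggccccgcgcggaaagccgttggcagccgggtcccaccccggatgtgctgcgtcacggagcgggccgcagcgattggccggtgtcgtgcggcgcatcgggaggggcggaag

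The Hspe1 window (chr1:55087898-55088197, plus strand) held 3 overlapping pairs between 89 and 72 bases before the start. Together they made 2 overlapping runs of 3 units. Hspd1 starts on the opposite strand, and its second listed window shares 285 bases with that of Hspe1 and held the same 3 pairs, while its first listed window held 0. The Hsph1 window (chr5:149636287-149636586, minus strand) held a pair from 33 to 26 bases before the start and an overlapping couple from 36 to 48 bases after it, which made 1 run of 3 units. Hspb1 (chr5:135887669-135887968, plus strand) had 2 pairs, at 117 to 110 and at 97 to 90 bases before the start. Hspa1a (chr17:34972107-34972406, minus strand) had 1 pair, 104 to 97 bases before the start. The Hspa1b window (chr17:34959189-34959488, minus strand) had the same pair at the same place, and it matched that of Hspa1a at 296 of 300 bases. Counted from 1 at the 5′ end of the window, with the Hspa1a base first, the substitutions were C44T, T47C, T249G and C276T. The Dnajb1 window (chr8:83607925-83608224, plus strand) held 0 pairs. A match is a run of letters, not a site shown to be bound, and the absence of one in this window leaves other parts of the gene unread.

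**Figure D1:**
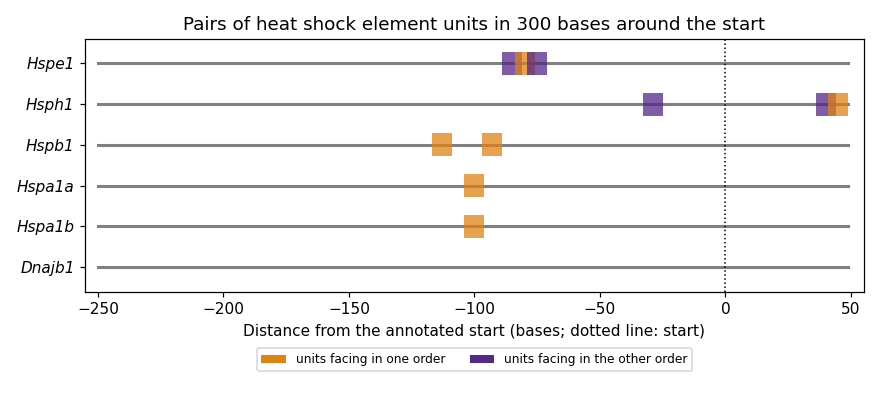
Positions of paired heat shock element units in the promoter windows of 6 members, in bases from the annotated start (dotted line). Boxes mark each pair, coloured by the order in which the units face; Hspe1 carries 3 overlapping pairs, Hsph1 carries 3, Hspb1 carries 2, Hspa1a and Hspa1b carry 1 each at the same distance, and Dnajb1 carries 0.

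With RT averaged over Tert+ and Tert- cells, 9 of the 10 chaperone genes were higher after RT at an adjusted p under 0.05 (edgeR quasi-likelihood test). Over all genes tested, 6.36% were called higher in that comparison. The fit took all 14 libraries as separate. The labels do not state whether same-numbered Tert+ and Tert- libraries came from 1 animal. Without RT, deviations from group means correlated at 0.347, 0.312 and 0.169 between same-numbered libraries. The numbers were taken to pair those libraries from the data alone. The fit ignores that pairing, so the SEs and adjusted p-values of this comparison could be too small. Only Hspd1 missed the threshold, and the median log2 fold change of the 10 was 1.11 against -0.0099 over all genes. Sizes ranged from 0.24 for Hspd1 to 2.80 for Hspa1b. Since these genes were chosen with results of the same libraries known, nothing is read from the gap between that count and the background. Below, each gene is given by role.

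**Figure D2:**
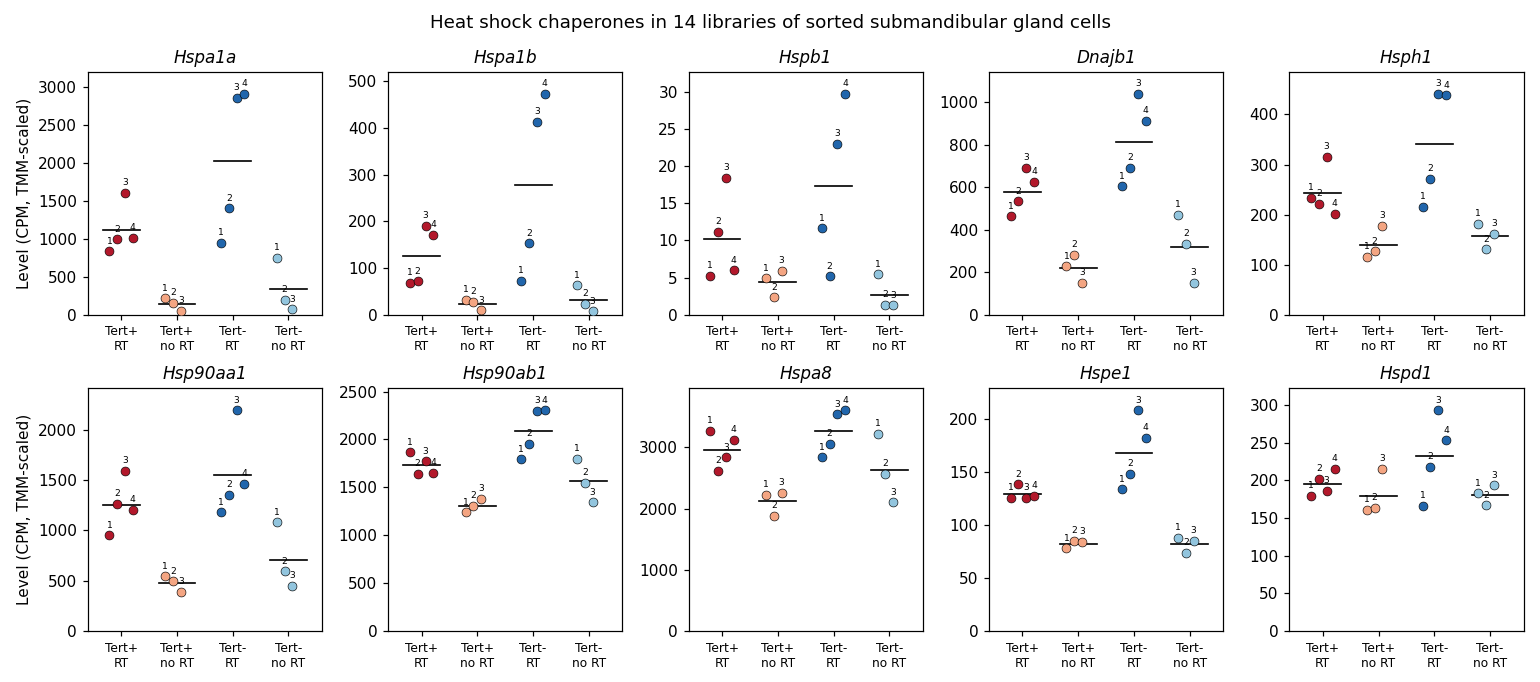
Level of each chaperone gene in CPM (linear axes from 0) in every library, by group, with replicate numbers beside the points and a bar at the group mean. For Hspa1a, Hspa1b, Hsph1 and Hspe1, all 8 RT libraries lie above all 6 libraries without RT, and Tert- RT replicates 3 and 4 lie above replicates 1 and 2 of their group in all 10 panels.

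Hspa1a and Hspa1b encode the stress-inducible cytosolic HSP70, and they showed the largest differences of the 10 genes. They lie side by side on the minus strand of chromosome 17 (mm10), Hspa1a (ENSMUSG00000091971) at 34969190 to 34972156 and Hspa1b (ENSMUSG00000090877) at 34956436 to 34959238. The gap between them is 9951 bases, and each has 1 exon. The annotated gene Gm20481, on the plus strand, overlaps Hspa1a by 2225 bases and had 0 counts. Whether counting used strand is not given, so the effect of this overlap on Hspa1a counts is unknown. Hspa1a stood at 837, 993, 1607 and 1010.5 CPM in Tert+ RT replicates 1 to 4, against 216, 159 and 49.0 CPM in Tert+ no RT replicates 1 to 3. In Tert- cells it stood at 944, 1404, 2859 and 2909.7 CPM after RT, against 754, 196 and 71.0 CPM without RT. Neither population's groups overlapped, but Tert- no RT replicate 1 lay far above the other 5 libraries without RT and close below the lowest RT library. Averaged over the populations, the log2 fold change with RT was 2.78 ± 0.55 (SE, adjusted p = 0.00865). Within Tert+ it was 2.98 ± 0.79 (SE, adjusted p = 0.0808) and within Tert- 2.58 ± 0.78 (SE, adjusted p = 0.106), so neither population alone passed the threshold.

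Hspa1b was the lower of the pair in every library. It had 68.7, 71.9, 191 and 172 CPM in Tert+ RT, against 31.4, 27.4 and 9.41 CPM in Tert+ no RT, and 72.9, 153, 413 and 473 CPM in Tert- RT, against 63.0, 24.0 and 7.56 CPM in Tert- no RT. As for Hspa1a, replicates 3 and 4 of Tert- RT were the highest libraries and replicate 1 of Tert- no RT was the highest without RT. The averaged log2 fold change was 2.80 ± 0.59 (SE, adjusted p = 0.0105), and Hspa1b passed the threshold in neither Tert+ (adjusted p = 0.149) nor Tert- (adjusted p = 0.0793). The copies are so alike that reads can fit both: 58.8% of the 50-base stretches of the Hspa1a transcript also occur in that of Hspa1b, and 62.3% the other way round. For 150-base stretches the shares were 38.1% and 40.5%. How the authors' counting split reads that fit both copies is not given in the sources used here, so each copy's level is uncertain. Their sum does not depend on how reads counted once were split between the copies. Reads that were dropped, or counted for both copies, would still change it, and whether either happened is not given. The sum averaged 1238 ± 391 CPM in Tert+ RT and 164 ± 96.7 CPM in Tert+ no RT. In Tert- RT the sum averaged 2307 ± 1199 CPM, and in Tert- no RT 372 ± 392 CPM (SD, n = 4 after RT, n = 3 without). The sum's averaged log2 fold change was 2.77 ± 0.56 (SE, adjusted p = 0.00879).

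Hspa8 encodes the HSP70 that cells make constantly, and its difference with RT was small. The gene (ENSMUSG00000015656) lies on the plus strand of chromosome 9 at 40800984 to 40810087. Its level was 3266, 2615, 2838 and 3121 CPM in Tert+ RT and 2221, 1884 and 2262 CPM in Tert+ no RT. The Tert- libraries overlapped, with 2836, 3053, 3542 and 3607 CPM after RT and 3216, 2572 and 2105 CPM without RT. The averaged log2 fold change was 0.39 ± 0.11 (SE, adjusted p = 0.0233). That call was lost, with adjusted p between 0.0512 and 0.0666, when any of 4 libraries was left out: Tert+ no RT replicate 2, Tert- no RT replicates 2 or 3, or Tert- RT replicate 3. It was also lost without both of Tert+ RT replicates 3 and 4 (adjusted p = 0.0590, edgeR), an alternative chosen after seeing the data.

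Inducible against constitutive HSP70 was also read as a ratio of raw counts within each library, which no scaling between libraries can change. The uncertainty from reads that fit both Hspa1 copies carries over to it. Hspa1a and Hspa1b together, divided by Hspa8, gave 0.277, 0.407, 0.634 and 0.379 in Tert+ RT and 0.112, 0.0989 and 0.0258 in Tert+ no RT. The same ratio was 0.359, 0.510, 0.924 and 0.938 in Tert- RT and 0.254, 0.0856 and 0.0373 in Tert- no RT. All 8 ratios after RT lay above all 6 without RT, and Tert- no RT replicate 1 was again the highest of those without RT.

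The partners of HSP70 among the members were Dnajb1 and Hsph1. Dnajb1 (ENSMUSG00000005483, chromosome 8, 83608193 to 83612653, plus strand) had 462, 533, 689.9 and 626 CPM in Tert+ RT and 228, 281 and 150.0 CPM in Tert+ no RT. In Tert- it had 604, 689.6, 1038 and 912 CPM after RT and 469.7, 334 and 150.1 CPM without RT. The ranges did not overlap within either population, although Tert- no RT replicate 1 lay just above the lowest Tert+ RT library. Dnajb1 was called in both populations, with log2 fold changes of 1.39 ± 0.32 (SE, adjusted p = 0.0389) in Tert+ and 1.35 ± 0.32 (SE, adjusted p = 0.0460) in Tert-. The averaged value was 1.37 ± 0.23 (SE, adjusted p = 0.00192). Calls within a single population, for this gene and those that follow, rested on few libraries, as given with their counts.

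Hsph1 (ENSMUSG00000029657, chromosome 5, 149614287 to 149636376, minus strand) had 234, 222, 316 and 201 CPM in Tert+ RT and 116, 127 and 177 CPM in Tert+ no RT. Its Tert- libraries were at 215, 271, 441 and 438 CPM after RT and 182, 131 and 161 CPM without RT. All 8 RT libraries lay above all 6 others, and the pair Tert- RT replicates 3 and 4 lay about level with each other and well above the rest. The averaged log2 fold change was 0.95 ± 0.18 (SE, adjusted p = 0.00392). Hsph1 passed the threshold in Tert- at 1.11 ± 0.25 (SE, adjusted p = 0.0405), and in Tert+ the value was 0.80 ± 0.25 (SE, adjusted p = 0.112). The difference of the RT effects between the populations, -0.32 ± 0.35 (SE, adjusted p = 1.00), did not pass.

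Of the HSP90 pair, Hsp90aa1 had the larger log2 fold change. Hsp90aa1 encodes the cytosolic HSP90 that stress induces and Hsp90ab1 the one made constantly. Hsp90aa1 (ENSMUSG00000021270, chromosome 12, 110690605 to 110702728, minus strand) had 951, 1265, 1589.9 and 1203 CPM in Tert+ RT and 545, 493 and 390.0 CPM in Tert+ no RT. Its Tert- values were 1179, 1353, 2194 and 1459.6 CPM after RT and 1081, 592 and 449 CPM without RT. Hsp90aa1 ranges stayed apart within each population, and Tert- no RT replicate 1 reached above the lowest Tert+ RT library. The log2 fold change was 1.40 ± 0.28 (SE, adjusted p = 0.0260) in Tert+, 1.13 ± 0.28 (SE, adjusted p = 0.0541) in Tert- and 1.26 ± 0.20 (SE, adjusted p = 0.00160) averaged.

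Hsp90ab1 (ENSMUSG00000023944, chromosome 17, 45567775 to 45573271, minus strand) was at 1868, 1642, 1773 and 1650.2 CPM in Tert+ RT and 1241, 1309.5 and 1381 CPM in Tert+ no RT. Tert- RT libraries had 1794, 1956, 2297 and 2306 CPM, and Tert- no RT libraries had 1796, 1549 and 1346 CPM. The Tert+ groups stayed apart, while Tert- no RT replicate 1 stood a fraction above Tert- RT replicate 1. The averaged log2 fold change was 0.41 ± 0.090 (SE, adjusted p = 0.00916), and neither population passed alone. As a ratio of counts in the same library, Hsp90aa1 per Hsp90ab1 averaged 0.726 ± 0.161 in Tert+ RT and 0.366 ± 0.0790 in Tert+ no RT. In Tert- RT it averaged 0.734 ± 0.149 and in Tert- no RT 0.439 ± 0.143 (SD, n = 4 after RT, n = 3 without). The ratio's lowest RT library was at 0.509 and its highest library without RT at 0.602, so the groups overlapped once the populations were pooled. No 50-base stretch was shared between the transcripts of this pair.

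Of the mitochondrial pair, Hspe1 passed the threshold and Hspd1 did not. Hspd1 (ENSMUSG00000025980, minus strand, 55077835 to 55088243) and Hspe1 (ENSMUSG00000073676, plus strand, 55088132 to 55091307) run in opposite directions on chromosome 1 and overlap by 112 bases. Whether counting used strand is not given in the sources used here, so reads in the overlap cannot be told apart. Hspe1 had 126, 139, 125 and 128 CPM in Tert+ RT and 78.2, 84.8 and 84.1 CPM in Tert+ no RT, with 134, 148, 208 and 182 CPM in Tert- RT and 88.1, 74.0 and 85.0 CPM in Tert- no RT. The 6 libraries without RT lay within a narrow band, and all 8 RT libraries lay above it. Hspe1 was called in Tert+ at 0.65 ± 0.15 (SE, adjusted p = 0.0411), in Tert- at 1.03 ± 0.15 (SE, adjusted p = 0.0106) and averaged at 0.84 ± 0.11 (SE, adjusted p = 5.77e-04), the smallest adjusted p of the 10 genes in the averaged comparison.

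Hspd1 had 179.7, 202, 186 and 215 CPM in Tert+ RT and 161, 163 and 215 CPM in Tert+ no RT. Tert- RT libraries were at 166, 218, 293 and 253 CPM and Tert- no RT libraries at 183, 167 and 193 CPM. The groups overlapped in both populations, and the averaged log2 fold change of 0.24 ± 0.12 (SE, adjusted p = 0.202) did not pass. Within a library, Hspe1 counts per Hspd1 count were 0.700, 0.686, 0.673 and 0.593 in Tert+ RT and 0.486, 0.520 and 0.391 in Tert+ no RT. They were 0.804, 0.680, 0.711 and 0.721 in Tert- RT and 0.482, 0.444 and 0.440 in Tert- no RT. Every RT library was above every library without RT on this ratio. Among 11 rows named as pseudogenes of the members, 7 had no count in any library, and the most counted was Hspd1-ps3 with 756 counts over the 14 libraries.

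Hspb1, the small heat shock protein (ENSMUSG00000004951, chromosome 5, 135887919 to 135889563, plus strand), was the least counted member, with 12 to 344 counts per library. Its levels were 5.23, 11.2, 18.4 and 5.99 CPM in Tert+ RT and 4.89, 2.34 and 5.92 CPM in Tert+ no RT, and the Tert+ groups overlapped. In Tert- cells it had 11.6, 5.19, 23.0 and 29.7 CPM after RT and 5.45, 1.31 and 1.26 CPM without RT, which overlapped through the second RT library and the first one without RT. The averaged log2 fold change was 1.95 ± 0.50 (SE, adjusted p = 0.0200). Leaving out Tert+ no RT replicate 2 gave an adjusted p of 0.0576, and leaving out replicate 2 or 3 of Tert- no RT gave 0.0548 and 0.0570, none of them past the threshold.

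**Figure D3:**
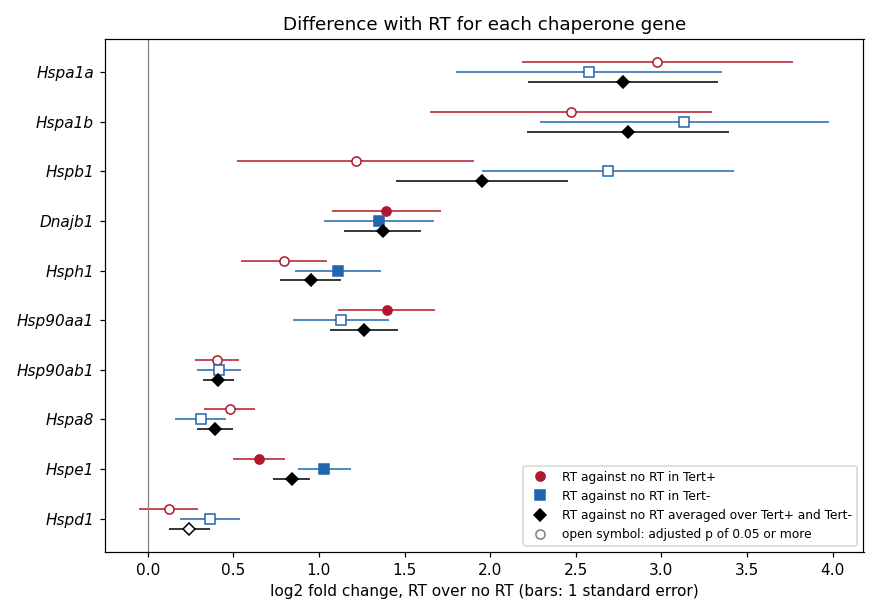
Log2 fold change of RT over no RT for each gene, in Tert+ (circles), in Tert- (squares) and averaged over both (diamonds), with bars of 1 SE; open symbols have an adjusted p of 0.05 or more. Hspa1a and Hspa1b sit between 2.47 and 3.13 with wide bars, Hspa8 and Hsp90ab1 between 0.31 and 0.48, and all diamonds but that of Hspd1 are filled.

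Within each population, the counts of called members were smaller than in the average. In Tert+ cells 3 of 10 were called higher (Dnajb1, Hspe1, Hsp90aa1), with 1.11% of all genes called higher there. In Tert- cells 3 of 10 were called higher (Dnajb1, Hspe1, Hsph1), with 0.817% of all genes called higher. The median log2 fold change of the 10 was 1.00 in Tert+ and 1.12 in Tert-. The Tert+ count depended on single libraries. Dropping replicate 2 or 3 of Tert+ RT, or replicate 2 or 3 of Tert+ no RT, brought it to 0. Dropping replicate 4 of Tert+ RT, replicate 1 of Tert+ no RT, or replicate 2 or 4 of Tert- RT brought it to 1. The Tert- count was 8 with replicate 1 of Tert- no RT dropped and 0 with replicate 2 of that group dropped. It was 1 when replicate 2, 3 or 4 of Tert- RT, replicate 3 of Tert- no RT or replicate 2 of Tert+ no RT was dropped. DESeq2 called 8 members in each population, and it also called more of all genes higher, 627 in Tert+ and 630 in Tert-, against 176 and 130 by edgeR. The averaged count stayed at 7 to 9 when any 1 library was left out, and 7 of its 9 genes passed in each of the 21 alternatives run for that comparison.

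Ranges that did not overlap were counted as well. RT libraries lay wholly above those without RT for 8 of 10 members in Tert+, against 7.28% of all genes, and for 6 of 10 in Tert-, against 9.70%. Over both populations, 8 libraries against 6, this held for 4 members (Hspa1a, Hspa1b, Hsph1 and Hspe1), against 1.82% of all genes. As above, these counts describe genes picked with the libraries in view, and same-numbered Tert+ and Tert- libraries may share an animal.

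Tert+ and Tert- cells were not shown to differ in any of the 10 genes. Without RT, 0 members were called in Tert+ against Tert- by edgeR, DESeq2 or limma voom, and 0 members and 716 of all genes had an unadjusted p under 0.05 in edgeR. Of all genes, edgeR called 0.0377% in either direction there. After RT, 0 members were called by any of the 3 tools, and 3 members and 1176 of all genes had an unadjusted p under 0.05, where edgeR called 0.0126% of all genes. All 10 log2 differences after RT were below 0, with a median of -0.43 and a lowest adjusted p of 0.594. Of all genes tested, 49.4% were above 0 there. Tert- RT replicates 3 and 4 lay above replicates 1 and 2 for all 10 members. Most members moved together, so the 10 signs are not independent. The contrasts without and after RT both rest on titles that the cell type field contradicts. The difference of the RT effects, Tert+ minus Tert-, had 0 called members by any of the 3 tools and 0% of all genes called by edgeR, with 0 members and 578 genes at an unadjusted p under 0.05. For the members its median was -0.13, and it ran from -1.47 for Hspb1 to 0.40 for Hspa1a. Those values have wide errors, for example -1.47 ± 0.96 (SE, adjusted p = 1.00) for Hspb1.

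Macrophage genes differed in level between the sorted populations. The summed level of 6 macrophage genes, all of them tested, was 94.2 to 191 CPM in Tert+ RT and 250.4 to 1158 CPM in Tert- RT. Without RT it was 117 to 280.2 CPM in Tert+ and 1520.4 to 1859.97 CPM in Tert-. C1qa, C1qb, C1qc, Csf1r and Cd68 were detected in all 14 libraries and Adgre1 in 13. Their part in the chaperone levels was not tested.

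Other quantities moved with RT alongside the chaperones. Germinal centre B cell genes (7 listed and tested, among them Bcl6, Mef2b and S1pr2) summed to 110 to 144 CPM after RT and 292 to 733 CPM without RT. Bcl6 and Mef2b were detected in all 14 libraries. The share of counts from mitochondrial genes was 1.13% to 2.86% after RT and 0.418% to 1.22% without RT. The 6 general B cell genes overlapped, at 7954 to 10402 CPM after RT and 7287 to 11446 CPM without RT, and so did the 8 epithelial genes, at 99.9 to 496 CPM after RT and 167 to 617 CPM without RT. The part of these in the chaperone differences was not tested.

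Libraries of 1 group were themselves uneven, and the 10 genes were uneven together. Summed over the members, the level was 7693 to 13308 CPM after RT and 4531 to 7837 CPM without RT. The highest of the 14 libraries was Tert- RT replicate 3 for 5 members and Tert- RT replicate 4 for the other 5. Tert- no RT replicate 1 was the highest library without RT for 8 of the 10. Its summed level of the erythroid genes Hbb-bs, Hba-a1 and Hba-a2 was 163 CPM. The other libraries without RT had 0 to 0.443 CPM and the RT libraries 7.23 to 215 CPM. Its macrophage sum of 1860 CPM was the highest of the 14 libraries. The part of either in its chaperone levels was not tested. Across the 14 libraries, Pearson's r of each gene's log2 level with the mean of the other 9 was 0.868 to 0.941 for 8 of the genes, 0.813 for Hspb1 and 0.657 for Hspd1. These correlations include the difference with RT and are descriptions of libraries that share depth and handling.

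Immediate early genes, which cells switch on within minutes of many stimuli including tissue dissociation, were followed beside the chaperones. Of 20 listed and tested, Jun and Ier5 rose and Fos, Jund and Klf2 fell with RT in the averaged comparison, and the list's median was 0.10. The shares of all genes called there were 6.36% higher and 7.0% lower. Klf2 passed in 9 of the 21 alternatives and Ier5 in 13. Jun stood at 0.94 ± 0.21 (SE, adjusted p = 0.0107) and Fos at -0.73 ± 0.18 (SE, adjusted p = 0.0179). The most expressed, Junb, averaged 2008 ± 186 CPM after RT and 1883 ± 344 CPM without RT, and Nr4a1 averaged 1581 ± 373 CPM after RT and 1205 ± 581 CPM without RT (SD, n = 8 and 6); neither passed the threshold. Summed over the 20 genes, libraries ran from 6889 to 9899 CPM after RT and from 5536 to 10805 CPM without RT. Tert- no RT replicate 1, the library without RT that was highest for most chaperones, had the highest immediate early sum of all 14. The sum was 9306 CPM in Tert- RT replicate 3 and 9899 CPM in replicate 4, the highest of the RT libraries. Other libraries were ordered differently. Tert+ RT replicate 1 had an immediate early sum of 6889 CPM and a chaperone sum of 7996 CPM. Tert+ no RT replicate 1 had 7248 CPM and 4842 CPM. The part of immediate early genes, or of what switches them on, in the chaperone levels was not tested.

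**Figure D4:**
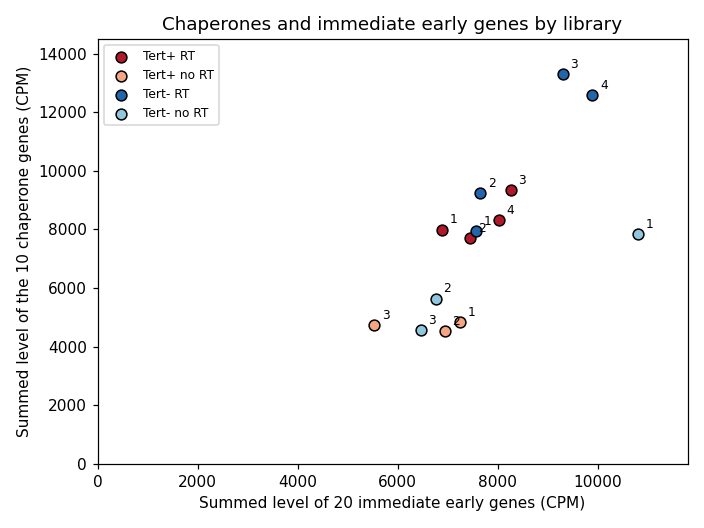
Summed level of the 10 chaperone genes (vertical, CPM) against that of 20 immediate early genes (horizontal, CPM), 1 point per library, coloured by group and numbered by replicate. RT libraries lie between 7693 and 13308 CPM on the chaperone axis and the others between 4531 and 7837 CPM; Tert- no RT replicate 1 is farthest right, at 10805 CPM.

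Set per kilobase of gene length, which allows genes to be compared, the median levels over 14 libraries were 659.5 CPM per kilobase for Hspa8 and 571 for Hsp90ab1. Hspa1a at 300.1 and Hsp90aa1 at 287 followed, then Dnajb1 at 156. Hspe1 at 85.2 and Hspd1 at 71.8 CPM per kilobase came next, and Hsph1 at 28.7, Hspa1b at 25.1 and Hspb1 at 5.51 were lowest. The constitutive members Hspa8 and Hsp90ab1 had the highest levels and the smallest called differences, and the mitochondrial pair lay in the middle. Neighbours in this order such as Hspa1a and Hsp90aa1, or Hsph1 and Hspa1b, changed places between the RT and no RT groups.

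Further chaperone genes were then counted by role in the averaged comparison, where 6.36% of all genes were called higher and 7.0% lower. The heat shock factors and their regulator (3 of 5 tested) had 0 called, and 0 at an unadjusted p under 0.05 (edgeR), with a median log2 fold change of 0.11. Hsf1, the factor that drives the response, averaged 102 ± 18.9 CPM after RT and 94.0 ± 20.6 CPM without RT, and Hsbp1, which binds it, averaged 87.3 ± 16.1 CPM after RT and 105 ± 25.9 CPM without RT (SD, n = 8 and 6). Of 5 tested HSP70 and HSP110 genes outside the members, 1 rose: Hspa4, an HSP110, at 0.38 ± 0.094 (SE, adjusted p = 0.0161), with a median of 0.38 over the 5. Of 15 other J domain genes, Dnaja1 rose at 0.55 ± 0.13 (SE, adjusted p = 0.0150), Dnajb4 rose at 0.80 ± 0.19 (SE, adjusted p = 0.0134) and Dnajb14 fell at -1.65 ± 0.41 (SE, adjusted p = 0.0167), while 12 did not pass and the median was 0.16. Dnaja1 encodes a major J domain partner of cytosolic HSP70.

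The partners of HSP70 and HSP90 outside the members had few called genes. Of 9 nucleotide exchange and partner proteins of HSP70, none rose and Hspbp1 fell, at -0.80 ± 0.22 (SE, adjusted p = 0.0283), with a median of -0.046. Of 17 HSP90 cochaperones, Ahsa1, which speeds the HSP90 cycle, rose by 0.38 ± 0.096 (SE, adjusted p = 0.0194). Cdc37, which brings kinases to HSP90, and the immunophilin Fkbp4 fell, with log2 fold changes of -0.45 and -0.45 and adjusted p of 0.0181 and 0.0246, and the list's median was 0.00. The chaperonin of the cytosol (TRiC) and prefoldin, which hands it actin and tubulin, had 1 of 14 higher (Pfdn5, 0.53) and 1 lower (Cct8, -0.40), with a median of -0.27. Mitochondrial chaperones and proteases other than the member pair had 1 of 16 lower and none higher (Afg3l2, -0.53), with a median of -0.18. The Hspbp1 and Afg3l2 calls each held in 12 of the 21 alternatives. Of 4 other small heat shock genes tested, with a median of 0.85, 0 passed and 1 had an unadjusted p under 0.05 (edgeR), with Cryab at 4.31 ± 2.73 CPM after RT and 3.45 ± 1.47 CPM without RT and Hspb8 at 2.28 ± 2.65 CPM after RT and 4.04 ± 5.96 CPM without RT (SD, n = 8 and 6). Of 7 further genes that heat shock induces, 2 rose, among them Dedd2 at 0.48 ± 0.11 (SE, adjusted p = 0.00944), and the median was 0.35.

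Chaperones of the endoplasmic reticulum went the other way. Of 18 tested, 9 fell with RT in the averaged comparison and 1, Dnajb9, rose at 0.39 ± 0.11 (SE, adjusted p = 0.0329), with a median of -0.39. The 4 with the smallest p were Sdf2l1 at -1.14 ± 0.16 (SE, adjusted p = 8.25e-04), Pdia6 at -0.81 ± 0.12 (SE, adjusted p = 0.00105), Dnajb11 at -0.66 ± 0.11 (SE, adjusted p = 0.00192) and Creld2 at -0.62 ± 0.11 (SE, adjusted p = 0.00339). These 4 passed in each of the 21 alternatives run for that comparison, whereas Dnajc3 passed in 4 of them, Dnajc10 and Calr in 9 each, and Dnajb9 in 12. Sdf2l1 and Dnajb11 work with the reticulum's own HSP70, and Pdia6 is a disulphide isomerase. Sdf2l1 averaged 37.5 ± 8.30 CPM after RT and 82.6 ± 14.3 CPM without RT and Pdia6 averaged 216 ± 30.8 CPM after RT and 378 ± 55.6 CPM without RT (SD, n = 8 and 6). Within populations, where 0.873% of all genes were called lower in Tert+ and 0.804% in Tert-, Pdia6 and Sdf2l1 fell in both, Creld2 fell in Tert+ and Dnajb11 fell in Tert-, while Dedd2 was the only gene of the other lists called higher in either. Of the 22 alternatives for those comparisons, the Dedd2 call in Tert- held in 6, that of Sdf2l1 in Tert+ in 10 and that of Pdia6 in Tert- in 14.

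**Figure D5:**
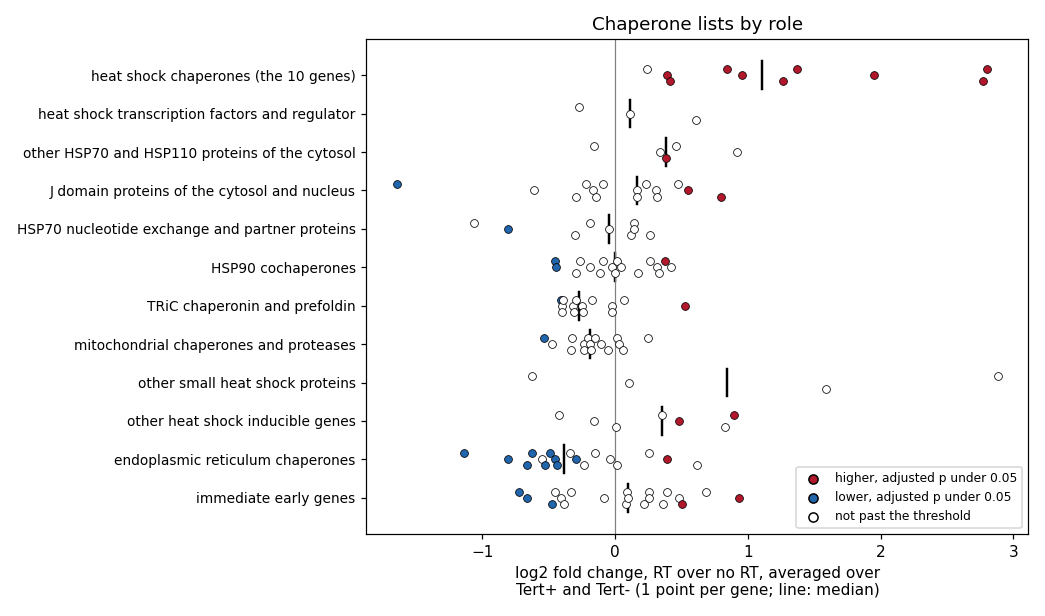
Log2 fold change of RT over no RT, averaged over Tert+ and Tert-, for each tested gene of the 10 members and of 11 further lists; filled points passed an adjusted p of 0.05 and black lines mark list medians. The member median is 1.11, the endoplasmic reticulum median -0.39, and the medians of the remaining lists lie between them, with few filled points in each.

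Finally, named protein-coding genes were ranked by how closely their log2 levels followed the mean profile of the 10 members over the 14 libraries, among 8220 genes whose mean log2 CPM was 3 or more. Among the closest were Snx5 (Pearson's r = 0.968), Rsrc2 (0.964), Rsf1 (0.962), Neu1 (0.946) and Impact (0.939). Snx5, a sorting nexin of endosomes, ran from 534 to 811 CPM after RT and from 365 to 484 CPM without RT. Neu1, a lysosomal sialidase, ran from 169 to 366 CPM after RT and from 74.3 to 159.7 CPM without RT. Neu1 lies on chromosome 17 at 34931253 to 34935953, 20482 bases from Hspa1b. The other genes named lie on other chromosomes.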

How the data were processed

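The deposited table holds raw counts of reads per gene in 14 libraries, made by the authors with HISAT2 on the mouse build mm10, per the submitters' processing notes; versions, the counting program and strand setting are not given in the sources used here. The analysis used edgeR 4.0.16 in R 4.3.3. Low genes were removed with filterByExpr on the 4 groups, leaving 15915 of 54532, and libraries were scaled by TMM. All 14 libraries entered 1 model with a coefficient for each group and robust dispersions, and 6 contrasts were tested with the two-sided quasi-likelihood test. P-values were adjusted over all genes tested (Benjamini-Hochberg), with a threshold of 0.05. The fit was also run on simulated counts. Their libraries were drawn independently, so that run cannot show how libraries sharing an animal would affect the p-values. Alternatives were RLE size factors, no filter, a replicate block, fits of the compared groups alone, DESeq2 1.42.0, limma 3.58.1 voom and leaving out each library. Members, lists and the immediate early genes were chosen with earlier results of these data known. Every member is described; of each further list, up to 4 members past the threshold, or the 2 most expressed where none passed, are named. Dnajb9, Dnajc3, Dnajc10, Calr and the 5 called immediate early genes fell outside this rule and were named after their values were seen. Some genes that the rules would name are not reported here.

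Same-numbered libraries were checked for pairing by the correlation of their deviations from group means. Without RT the Tert+ and Tert- libraries of numbers 1 to 3 gave 0.347, 0.312 and 0.169, so the numbers were taken to pair them from the data alone. The fits with and without the block both called 0 members between Tert+ and Tert- there. With 0 calls in each, they cannot show whether the pairing matters. No 2 libraries of a group agreed within sampling noise.

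Totals of 5520412 to 15943597 counts limit precision most for Hspb1, which had 12 to 344 counts per library. Promoter windows came from RefSeq (GRCm38.p6) and were searched in Python 3.11.15.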

Additional observations from a re-analysis of the deposited data

Results flagged for a closer look

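Hspe1 in Tert+ RT stood at 139 CPM in replicate 2, while the other 3 libraries of that group lay between 125 and 128 CPM. The gap between replicate 2 and its nearest neighbour was 0.830 of the group's range, just above Dixon's 95% critical value for 4 samples. This was 1 of 20 tests so made, for each member in Tert+ RT and in Tert- RT, and chance alone marks about 1 in 20. Most members moved together, so these tests are not independent. All 4 libraries lay above the 3 of Tert+ no RT, at 78.2, 84.8 and 84.1 CPM.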

How the results depend on the processing

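The count of members higher after RT in the averaged comparison stayed at 7 to 9 of 10 when each library was left out and at 8 or 9 under the other alternatives (8 with the replicate block, Hspa8 having an adjusted p of 0.0609). Within Tert+, the count of 3 was 1 with no filter on low counts, 0 with the replicate block, 8 with DESeq2, and 0 to 4 with each library left out. It was 0 without both of Tert+ RT replicates 3 and 4, the libraries with the lowest rank correlation to their group, an alternative chosen after seeing the data. Within Tert-, the count of 3 was 2 with the replicate block, 8 with DESeq2, 5 with limma voom, 1 with only the 2 groups compared, and 0 to 8 with each library left out. The replicate numbers of RT libraries correlated at 0.0378 to 0.108 and 3 of the 4 matched best with their own number. Correlations this low cannot decide whether same-numbered RT libraries are paired. The replicate block also joins RT and no RT libraries of the same number, and no link between those was checked. Nothing is therefore concluded from the blocked RT results. With the block, the adjusted p of Dnajb1 was 0.0796 in Tert+ and 0.0843 in Tert- (edgeR). The counts of members called between Tert+ and Tert-, and for the difference of the RT effects, were 0 in every alternative run. Over all genes, calls ran from 1211 to 3023 for RT averaged (2126 as reported), between 21 and 1057 in Tert+ (315) and between 18 and 1198 in Tert- (258). Between Tert+ and Tert- they numbered 1 to 74 without RT (6) and 0 to 109 after RT (2), and 0 to 12 for the difference of the RT effects (0), the highest with DESeq2 in each case.

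Signs changed only for differences near 0 or with wide errors. For Tert+ against Tert- without RT, the log2 difference of Hspe1 was -0.013 with RLE size factors, -0.0056 with no filter, -0.0011 with the replicate block, -0.013 with DESeq2 and -0.015 with only the 2 groups compared. With libraries left out it ran from -0.077 to 0.043 for Hspe1, from -0.16 to 0.072 for Hspd1, from -1.74 to 0.071 for Hspa1a and from -0.93 to 0.50 for Hspa1b. For the difference of the RT effects, Dnajb1 was at -0.043 with the replicate block within RT state, -0.033 with limma voom and -0.18 without both Tert+ RT replicates. Hsp90ab1 was at 3.76e-04 with no filter, and Hspa1b, counted with Hspa1a as a sum, at 0.28. With libraries left out it ran from -0.36 to 0.38 for Dnajb1, from -0.96 to 0.88 for Hspa1a, from -9.82e-05 to 0.31 for Hspa8, from -0.18 to 0.51 for Hsp90aa1 and from -0.13 to 0.089 for Hsp90ab1. The cause of these changes was not tested. Depth limits Hspb1 most, and counts without molecular identifiers carry more than counting error.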
